A study of Mus musculus with 7 samples.

Results

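The extracellular matrix genes described here are 47 listed genes of collagens, other matrix proteins, basement membrane components and matrix enzymes. Each was read from the brightest probe set that the probe table pairs with that gene symbol alone, by the mean over 7 arrays. Such a probe set was found for 46 of the 47, out of 18193 genes with one, and Fbn1, fibrillin 1, is not analysed here. The arrays held brown fat RNA of 3-day-old male C57BL/6J mice. There were 4 arrays of mice with a knockout (KO) of Gyk, the glycerol kinase gene, as replicates 1 to 4, and 3 arrays of wild-type mice as replicates 1, 3 and 4. The knockout is named in the labels without its allele or construction, and 1 KO sample carries its genotype in its title alone. No agent was given to either group, as far as the labels say. They do not say whether replicates are separate animals, and the p-values therefore cover just the spread among these samples, which may be technical.

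The matrix is the protein scaffold that cells secrete around themselves. Fibrillar collagens are built as triple helices inside the cell, trimmed by proteases outside it and joined into fibres by lysyl oxidases. Basement membranes are thin sheets around fat cells, vessels and muscle fibres, in which networks of laminin and type IV collagen are tied together by nidogens and perlecan. In brown fat most of the fibrillar matrix comes from fibroblasts and fat cell precursors, while fat cells, endothelial cells and pericytes contribute to the basement membrane. RNA was taken from whole tissue, so fewer cells of a type and less RNA per cell cannot be told apart in any value below.

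Array medians, without control probe sets, lay between 131.2 and 153.7 signal units, and precision is limited by how many arrays there were. The array labelled KO replicate 2 stood apart from the other KO arrays. It scored -13.8 on the first principal component, on the side of the wild-type arrays (-33.3 to -23.0), against 33.4 to 35.7 on the other 3 KO arrays. Its closest array was wild-type replicate 1 (r = 0.976 over all probe sets). Its highest Xist signal was 2757, against 182.8 to 272.7 elsewhere, whereas male sex is given for every sample. Gyk itself is not analysed here, and genotypes are therefore taken from the labels alone. Results that rest on this array are given below with and without it. The array was singled out by values of these same data. Leaving out the KO array nearest to wild type tends to widen differences, so the fit without it is no separate support. The accession numbers of the arrays fall into 2 blocks, the first with KO replicates 1 and 2 and wild-type replicate 1, the second with the other 4.

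With all arrays, 2 of the 46 matrix genes passed the test and both fell: Nid2, nidogen 2, a linker of the laminin and type IV collagen networks, and Vcan, versican, a large proteoglycan that binds hyaluronan. The test was limma on log2(signal + 30.6) over 27022 probe sets, with Benjamini-Hochberg adjusted p under 0.05. Of all probe sets tested, 0.644% were called lower in KO and 0.951% higher. With the array labelled KO replicate 2 left out, 13 of the 46 fell and 0 rose, where 4.21% of all probe sets were called lower and 3.14% higher. These 13 included both Nid2 and Vcan. At an unadjusted p under 0.05 with all arrays, 15 of the 46 were lower and 2 higher. By that measure 4465 of the 27022 probe sets differed, in either direction. The unadjusted counts given below for single groups are to be read beside that number. The log2 difference was below 0 for 38 of the 46 genes (82.6%), against 49.9% of all probe sets tested, and its median was -0.24 over the matrix genes, against 0.00050 over all probe sets. With the array labelled KO replicate 2 left out the medians were -0.31 and 0.0050. These shares and medians, here and below, describe the list and do not test it, because its genes were chosen with earlier results of these data known. Each matrix gene is read by its brightest probe set, while the probe sets set beside it include dimmer ones.

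**Figure D1:**
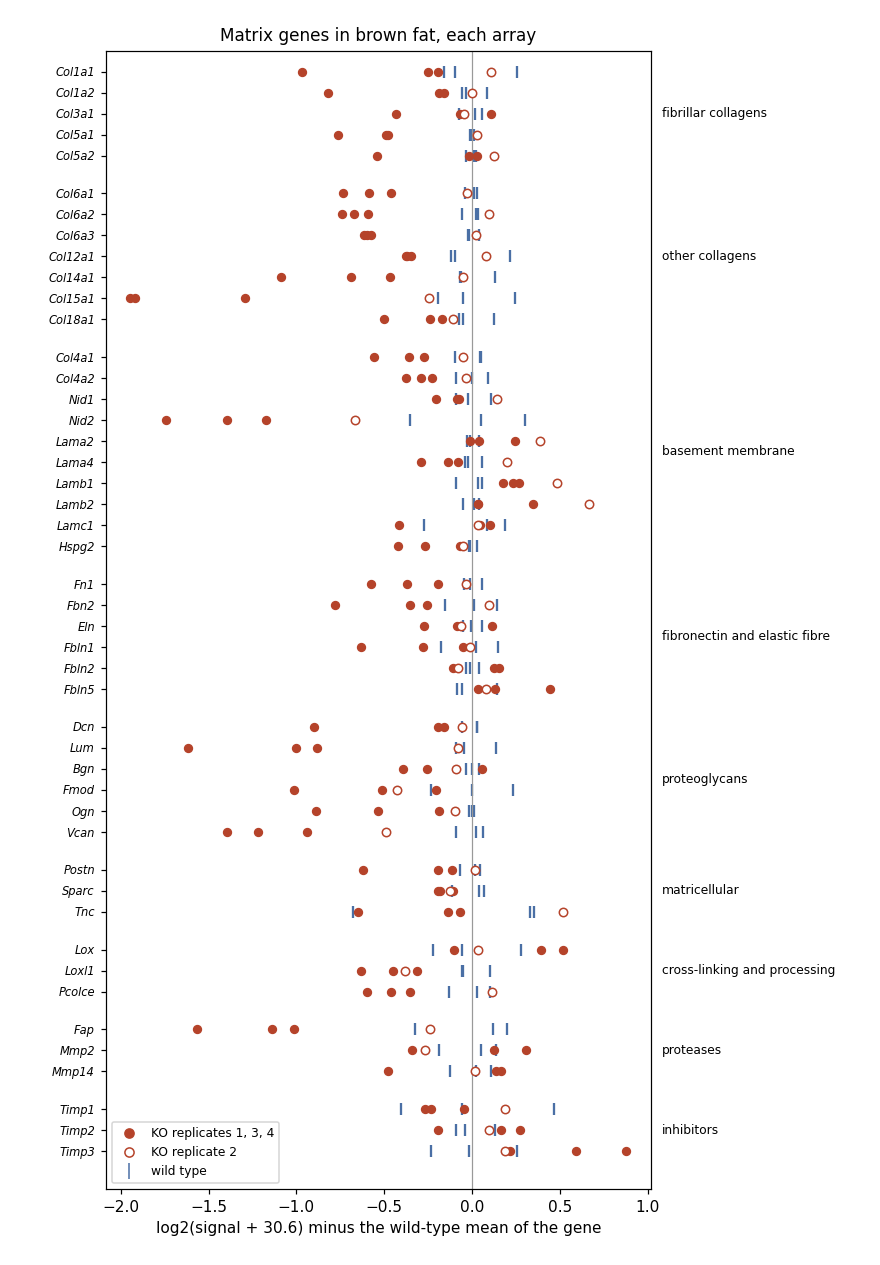
Each row is 1 matrix gene, ordered by role, and the x axis is log2(signal + 30.6) minus the mean of the wild-type arrays for that gene. Filled points are KO replicates 1, 3 and 4, open points KO replicate 2 and ticks the 3 wild-type arrays. In 25 of the 46 rows KO replicates 1, 3 and 4 all lie left of every wild-type tick, and in 7 rows the open point does so too.

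By the brightest probe set, every KO array was below every wild-type array for 7 matrix genes, as for 7.25% of all probe sets. These were Col15a1, Col18a1, Nid2, Hspg2, Ogn, Vcan and Loxl1. The groups overlapped in every other tested probe set of Col18a1, Hspg2, Ogn, Vcan and Loxl1. Col15a1 and Nid2 had no other probe set. Lamb1 alone was above on every KO array by its brightest probe set, as were 7.48% of all probe sets, and overlapped by its other tested ones. Setting the array labelled KO replicate 2 aside, 25 of the 46 genes were below wild type on KO replicates 1, 3 and 4, against 14.1% of all probe sets. That array held the highest KO signal for 32 of the 46 genes, against 29.5% of all probe sets. It lay within the wild-type range for 23 of the 46, close to the 47.5% of all probe sets that did. KO replicate 1 held the lowest KO signal for 26 of the 46, against 25.3% of all probe sets.

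The promoters of some of the genes described here are shown for orientation, because chains of 1 protein and genes at both ends of the range appear among them. RefSeq (GRCm38.p6) promoter windows were found for 30 of the 46 genes, and not for Nid2. Shown are the 250 bases before the annotated start, of the outer start where there were 2, of Vcan (chr13:89742513-89742762, minus strand), Col15a1 (chr4:47207762-47208011, plus strand), Col6a1 (chr10:76726045-76726294, minus strand), Col6a2 (chr10:76623631-76623880, minus strand), Col6a3 (chr1:90843972-90844221, minus strand) and Timp3 (chr10:86300162-86300411, plus strand). Capitals mark a CCAAT box (CCAAT), a GC box (GGGCGG) or a TATA box (TATAAA) on either strand, motifs that do not overlap one another here.
Vcan: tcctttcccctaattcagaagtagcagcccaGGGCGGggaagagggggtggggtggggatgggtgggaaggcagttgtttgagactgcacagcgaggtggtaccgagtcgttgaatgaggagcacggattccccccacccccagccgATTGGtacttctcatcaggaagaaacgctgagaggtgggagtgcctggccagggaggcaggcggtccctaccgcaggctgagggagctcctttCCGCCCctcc
Col15a1: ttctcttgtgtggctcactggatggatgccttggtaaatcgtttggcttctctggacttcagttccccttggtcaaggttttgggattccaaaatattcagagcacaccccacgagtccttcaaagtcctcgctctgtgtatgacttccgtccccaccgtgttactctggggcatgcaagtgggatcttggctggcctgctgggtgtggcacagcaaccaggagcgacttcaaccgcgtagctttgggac
Col6a1: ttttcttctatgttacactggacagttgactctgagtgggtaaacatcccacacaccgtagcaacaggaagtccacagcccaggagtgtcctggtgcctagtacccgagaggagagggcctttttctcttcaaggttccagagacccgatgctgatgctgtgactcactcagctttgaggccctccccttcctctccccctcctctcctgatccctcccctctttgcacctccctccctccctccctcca
Col6a2: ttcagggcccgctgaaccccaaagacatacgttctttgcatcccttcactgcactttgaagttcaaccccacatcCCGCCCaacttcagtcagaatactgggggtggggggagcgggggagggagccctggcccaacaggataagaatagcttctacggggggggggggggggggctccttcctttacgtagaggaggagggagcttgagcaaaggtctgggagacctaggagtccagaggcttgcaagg
Col6a3: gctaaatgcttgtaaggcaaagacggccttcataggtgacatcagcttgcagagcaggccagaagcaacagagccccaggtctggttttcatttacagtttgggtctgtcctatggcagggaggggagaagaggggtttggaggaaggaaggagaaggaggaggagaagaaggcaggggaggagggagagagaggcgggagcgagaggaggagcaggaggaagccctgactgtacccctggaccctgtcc
Timp3: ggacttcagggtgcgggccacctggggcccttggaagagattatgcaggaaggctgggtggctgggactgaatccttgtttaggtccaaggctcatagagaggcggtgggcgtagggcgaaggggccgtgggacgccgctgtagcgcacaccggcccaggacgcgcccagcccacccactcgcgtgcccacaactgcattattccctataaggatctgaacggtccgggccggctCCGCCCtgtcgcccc

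Vcan held 1 CCAAT box and 2 GC boxes in these letters, Col6a2 and Timp3 held 1 GC box each, and the windows of Col15a1, Col6a1 and Col6a3 held none of the 3 motifs. Over the 36 windows of the 30 genes, 21 held a GC box (58.3%), against 32.7% of all 32851 windows of this length. A CCAAT box was found in 30.6% of them against 33.8%, and a TATA box in 13.9% against 12.4%. These are matches of letters and not sites shown to be used.

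Among the 5 fibrillar collagens, the main tension-bearing fibres, 0 passed with all arrays (1 at an unadjusted p under 0.05) and all 5 had log2 differences below 0, from -0.43 to -0.10. Col5a1, a chain of the type V collagen that starts fibrils, read 2131, 3713, 2578 and 2602 on KO replicates 1 to 4, against 3643, 3669.5 and 3604 on wild-type replicates 1, 3 and 4. The 3 lowest arrays were KO, while KO replicate 2 was the highest of all 7. Col5a1 averaged 2756 ± 674 in KO and 3639 ± 32.7 in wild type (SD, n = 4 and 3). Its log2 difference was -0.43 ± 0.16 (adjusted p = 0.213, limma). It fell 1.49-fold when the array labelled KO replicate 2 was left out (adjusted p = 0.0123). Here and below, the ± after the log2 difference of a gene is its standard error from limma and not an SD. Col3a1, the type III collagen chain, read 16701, 21834, 21489 and 24261 on KO arrays, against 23403, 21417 and 22823 on wild-type arrays. Its groups overlapped (log2 difference -0.11 ± 0.13, adjusted p = 0.737). Its other, dimmer probe set gave a log2 difference of -0.63 and passed only when KO replicate 2 was left out (adjusted p = 0.0154). Col1a1 and Col1a2, the chains of type I collagen, had log2 differences of -0.33 ± 0.21 and -0.29 ± 0.17 and did not pass with or without that array by these probe sets. The lowest of the 4 KO signals was on KO replicate 1 for all 5 fibrillar genes, as in Col1a1, which read 5077, 10721, 8356 and 8711 on KO arrays against 11895, 9329 and 8909 on wild-type arrays. Col5a2, neighbour of Col3a1 on chromosome 1, was at -0.10 ± 0.15.

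All 7 other collagens had log2 differences below 0 (median -0.45), 0 passed with all arrays (5 at an unadjusted p under 0.05), and 5 fell without the array labelled KO replicate 2. Col15a1, a collagen of the zone between basement membrane and fibres, read 553, 1831, 871 and 542 on KO arrays, against 2103, 1896 and 2580.2 on wild-type arrays. The groups did not overlap, but KO replicate 2 lay close under the lowest wild-type array. Col15a1 averaged 949 ± 607 in KO and 2193 ± 351 in wild type (SD, n = 4 and 3), with the largest log2 difference of the 46 genes (-1.35 ± 0.34, adjusted p = 0.08, limma). Without that array it fell 3.29-fold (log2 difference -1.72 ± 0.19, adjusted p = 0.0011). Within the second accession block alone it fell (2 KO and 2 wild-type arrays, log2 difference -1.64, adjusted p = 0.02). That block is a part of the same arrays and lacks KO replicate 2 as well.

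Type VI collagen, a beaded filament network around cells, is made of 3 chains encoded by Col6a1, Col6a2 and Col6a3, and their values ran together. Col6a1 read 7333, 10819.5, 6617 and 7996 on KO arrays, against 10724, 11106 and 11241 on wild-type arrays. Col6a2, its neighbour on chromosome 10, read 5677, 10157, 6296 and 5964 on KO arrays, against 9664, 9151 and 9737 on wild-type arrays. Col6a3 read 2688, 4143, 2656 and 2727 on KO arrays, against 4193, 4031 and 4019.8 on wild-type arrays. In all 3 genes KO replicates 1, 3 and 4 were below every wild-type array, and KO replicate 2 read as wild type did or above it. The log2 differences with all arrays were -0.45, -0.48 and -0.44 (adjusted p = 0.158, 0.208 and 0.178). With the array labelled KO replicate 2 left out all 3 fell, by 1.51-fold, 1.59-fold and 1.51-fold (adjusted p = 0.00791, 0.00332 and 0.00543). Within the second block alone, a part of the same arrays that likewise lacks KO replicate 2, all 3 fell (adjusted p = 0.0457, 0.0301 and 0.0397). The second probe set of Col6a2 gave a log2 difference of -0.49.

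Col14a1, a collagen on the surface of fibrils, read 773, 1620.1, 1208 and 1031 on KO arrays, against 1845, 1599 and 1607 on wild-type arrays. KO replicate 2 was within the wild-type range, and Col14a1 fell 1.68-fold without it (adjusted p = 0.0215). Its second tested probe set was at -0.07 and missed the threshold. Col12a1, another fibril surface collagen (log2 difference -0.25 ± 0.16, adjusted p = 0.483), and Col18a1, whose end is cut off as endostatin (log2 difference -0.25 ± 0.14, adjusted p = 0.395), passed neither with nor without that array.

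**Figure D2:**
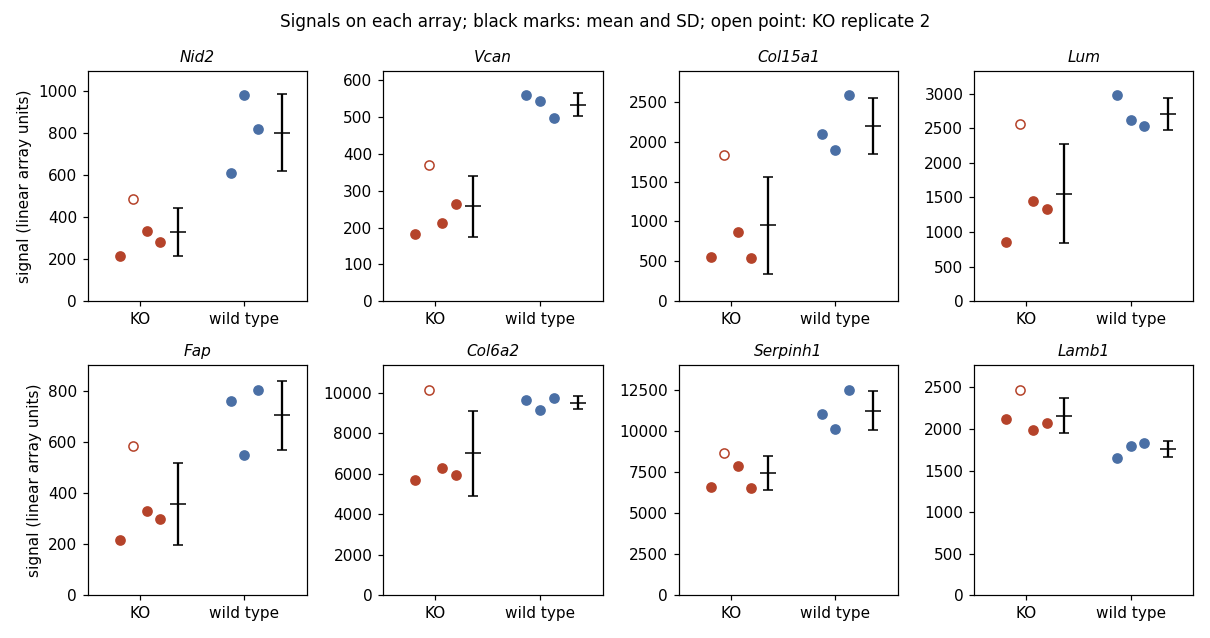
Signals (linear array units) of 7 matrix genes and of Serpinh1, the collagen chaperone, on each KO array (left) and wild-type array (right), with black marks for the mean and SD of 4 and 3 arrays and an open point for KO replicate 2. Nid2, Vcan and Serpinh1 are lower on all 4 KO arrays, while in Col6a2 the open point lies above the wild-type arrays and in Lamb1 all KO arrays are above wild type.

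In the basement membrane, 1 of 10 genes fell and 0 rose with all arrays, and 2 fell without the array labelled KO replicate 2. Nid2 read 214, 484, 332 and 280.4 on KO arrays, against 609, 977 and 817 on wild-type arrays. Every KO array was lower than every wild-type array, and KO replicate 2 was the nearest to wild type. It averaged 327 ± 115 in KO and 801 ± 185 in wild type (SD, n = 4 and 3), 2.37-fold lower (log2 difference -1.24 ± 0.24, adjusted p = 0.0371, limma). The call was lost when any 1 array other than KO replicate 2 was left out (adjusted p up to 0.147), while the log2 difference stayed between -1.44 and -1.08. Nid1, the other nidogen, read 5609.7, 6513, 5557 and 5115 on KO arrays, against 5546, 6378 and 5819.6 on wild-type arrays, and the groups overlapped (log2 difference -0.06 ± 0.11, adjusted p = 0.857). The difference between the nidogens was not tested.

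Type IV collagen is the network-forming collagen of basement membranes. Its genes Col4a1 and Col4a2 lie head to head on chromosome 8, and their 300-base promoter windows share 78 bases. Col4a1 read 10984, 15618, 12590.1 and 13369 on KO arrays, against 15116, 16657 and 16755 on wild-type arrays. KO replicates 1, 3 and 4 were below all wild-type arrays, and Col4a1 fell 1.32-fold without KO replicate 2 (adjusted p = 0.0486, and 0.237 with all arrays). Its second probe set was at -0.18 and missed the threshold. Col4a2 read 6535, 7483, 5897 and 6265 on KO arrays, against 7192, 8179.5 and 7674 on wild-type arrays, with the same arrays low, and did not pass (log2 difference -0.23 ± 0.11, adjusted p = 0.312, and adjusted p = 0.0959 without KO replicate 2).

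Of the 5 laminin chains, which form the cell-facing network, 0 passed with or without the array labelled KO replicate 2, and 3 had log2 differences above 0. Lamb1, the beta 1 chain, read 2117, 2471, 1989 and 2067 on KO arrays, against 1648, 1796 and 1829 on wild-type arrays. Lamb1, named here for its values, was the 1 matrix gene higher on every KO array by its brightest probe set (log2 difference 0.29 ± 0.11, adjusted p = 0.225). Its other tested probe sets, at 0.07 and 0.24, overlapped between the groups. Lamb2 and Lama2, the beta 2 and alpha 2 chains, were at 0.27 ± 0.17 and 0.16 ± 0.15, and in both the highest signal was on KO replicate 2. Lama4 and Lamc1, the alpha 4 and gamma 1 chains, were at -0.08 ± 0.12 and -0.06 ± 0.16. Hspg2, perlecan, was at -0.20 ± 0.12 (adjusted p = 0.441), with all KO arrays (1520.0 to 1977) below wild type (2019 to 2092) by its brightest probe set. By its other probe set the groups overlapped.

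Fibrillar collagens and basement membrane genes were compared on each array by the mean log2 signal of each group relative to its wild-type mean. The fibrillar mean was -0.70, 0.04, -0.20 and -0.14 on KO replicates 1 to 4, against 0.08, -0.04 and -0.04 on the wild-type arrays. The basement membrane mean was -0.21, 0.11, -0.21 and -0.28 on the KO arrays, against -0.10, 0.08 and 0.02 on the wild-type arrays. KO replicate 1 was thus the array on which the fibrillar genes were lowest, and KO replicate 4 the one for the basement membrane genes. Fibrillar minus basement membrane came to -0.50, -0.07, 0.01 and 0.14 on the KO arrays, against 0.18, -0.12 and -0.06 on the wild-type arrays. The KO mean of this difference was -0.11 ± 0.28 (SD, n = 4) and the wild-type SD was 0.16 (n = 3), so the 2 gene groups did not part by more than the spread between arrays. The sign turned without KO replicate 1 (0.03) and within the second block alone (0.17).

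**Figure D3:**
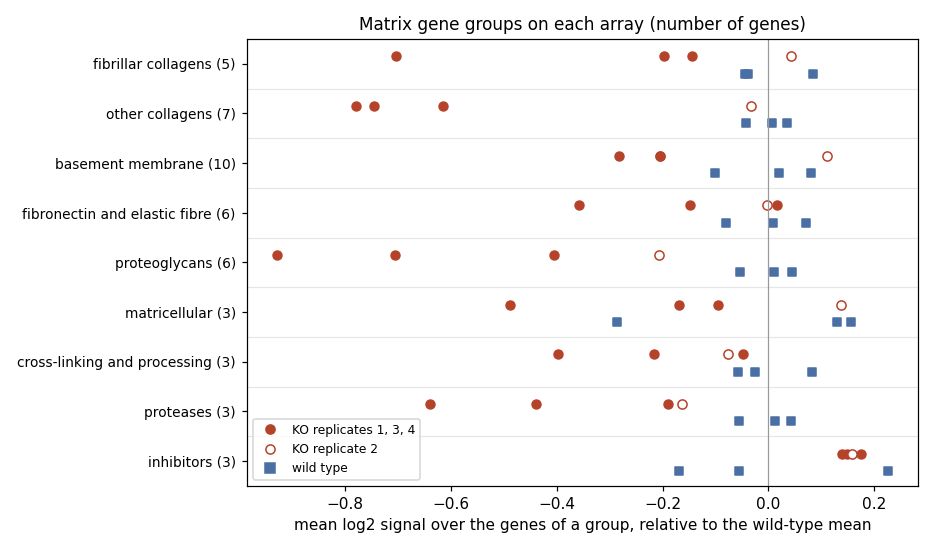
Mean log2 signal over the genes of each role group relative to the wild-type mean (x axis), for each array, with the number of genes in brackets. Filled points are KO replicates 1, 3 and 4, open points KO replicate 2 and squares wild-type arrays. The 7 other collagens lie between -0.78 and -0.62 on KO replicates 1, 3 and 4, and the 3 inhibitors between 0.14 and 0.17 on all 4 KO arrays, inside the wild-type range of -0.17 to 0.23.

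Of the 6 genes of fibronectin and elastic fibres, 0 passed with or without the array labelled KO replicate 2 (1 at an unadjusted p under 0.05 with all arrays). Fn1, fibronectin, on which cells assemble other fibres, read 2595, 3796, 3003 and 3397 on KO arrays, against 4041, 3763 and 3852 on wild-type arrays (log2 difference -0.29 ± 0.13, adjusted p = 0.296). KO replicates 1, 3 and 4 were below wild type and KO replicate 2 was within its range. Fbn2, a microfibril protein, Fbln1, a fibulin, and Eln, elastin, were at -0.32, -0.24 and -0.08 on the log2 scale. Fbln2 and Fbln5, fibulins of the elastic fibre, were at 0.02 and 0.17.

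Among the 6 proteoglycans, all had log2 differences below 0 (median -0.48), Vcan fell, and Lum also fell without the array labelled KO replicate 2. Vcan read 184, 371, 212 and 263 on KO arrays, against 559, 543 and 499 on wild-type arrays. The groups were apart, with KO replicate 2 again the highest KO array. Vcan averaged 257 ± 82.8 in KO and 533 ± 31.2 in wild type (SD, n = 4 and 3), 2.01-fold lower (log2 difference -1.01 ± 0.21, adjusted p = 0.0437, limma). This rests on 1 of its 3 tested probe sets: the other 2 differed by -0.47 and -0.17 and did not pass. The call was lost when any 1 array other than KO replicate 2 was left out (adjusted p up to 0.151), with log2 differences between -1.18 and -0.88.

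Lum and Dcn encode lumican and decorin, small leucine-rich proteoglycans that bind collagen fibrils and set their spacing, and are neighbours on chromosome 10. Lum read 862, 2560.4, 1456 and 1334 on KO arrays, against 2976, 2624 and 2539 on wild-type arrays. KO replicate 2 lay within the wild-type range and the other KO arrays well under it, so that Lum missed the threshold with all arrays (log2 difference -0.90 ± 0.27, adjusted p = 0.133) and fell 2.25-fold without KO replicate 2 (log2 difference -1.17 ± 0.18, adjusted p = 0.00543). Dcn read 4565, 8205, 7444 and 7629 on KO arrays, against 8713, 8190.0 and 8703 on wild-type arrays, with KO replicate 1 far under the others (log2 difference -0.33 ± 0.18, adjusted p = 0.398). Bgn, Fmod and Ogn, of the same family, were at -0.17 ± 0.12, -0.54 ± 0.23 and -0.43 ± 0.18 and did not pass. Ogn was lower on every KO array (781 to 1376) than on any wild-type array (1457 to 1486) by its brightest probe set. By its other probe set the groups overlapped.

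Of the matricellular proteins, which modulate how cells meet the matrix, 0 of 3 passed, and 0 had an unadjusted p under 0.05. Sparc, a collagen-binding protein, read 20762, 21769.8, 20912 and 22060.1 on KO arrays, against 24452, 21954 and 24934 on wild-type arrays (log2 difference -0.15 ± 0.09, adjusted p = 0.457). Postn, periostin, was at -0.23 ± 0.14, and Tnc, tenascin C, at -0.08 ± 0.32 with a wild-type range of 84.8 to 206.

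Among the genes that process and cross-link collagen, 0 of 3 passed with all arrays and 2 fell without the array labelled KO replicate 2. Loxl1, a lysyl oxidase of elastic fibres, read 3041, 3192, 2677 and 3346 on KO arrays, against 4020.2, 4477 and 4003 on wild-type arrays. The groups were apart and KO replicate 2 was among the other KO arrays, unlike in most of the genes above (log2 difference -0.44 ± 0.11, adjusted p = 0.073, and adjusted p = 0.0357 without it). Its second, dim probe set differed by -0.05. Lox, the founding lysyl oxidase, was at 0.21 ± 0.17, with overlapping groups. Pcolce, an enhancer of procollagen trimming, read 3631, 5952, 3988 and 4299.5 on KO arrays, against 5899, 5029.7 and 5608 on wild-type arrays. It fell 1.38-fold without KO replicate 2 (adjusted p = 0.0286, and 0.337 with all arrays), as did its second probe set (adjusted p = 0.0148).

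Of the 3 proteases, Fap fell without the array labelled KO replicate 2 and none did with all arrays (Fap adjusted p = 0.0982). Fap, fibroblast activation protein, a cell-surface peptidase of activated fibroblasts, read 215, 584, 328 and 298 on KO arrays, against 758, 549 and 803 on wild-type arrays. KO replicate 2 lay above the lowest wild-type array. Without it Fap was 2.36-fold lower (log2 difference -1.24 ± 0.20, adjusted p = 0.00595). Mmp2, a gelatinase, read 2146, 1627, 2443 and 1546 on KO arrays, against 2166, 2039 and 1724 on wild-type arrays, and overlapped (log2 difference -0.04 ± 0.17, adjusted p = 0.931). Its other, dimmer probe set went the other way: it read 1377, 1766, 1618 and 1712 on KO arrays, against 1241, 1358 and 959 on wild-type arrays, higher on every KO array, and missed the threshold (log2 difference 0.45, adjusted p = 0.148). The direction of Mmp2 therefore depended on the probe set. Of the 31 matrix genes with another tested probe set, 4 had one of the opposite sign (Lama4, Fbln1, Mmp2 and Mmp14). Mmp14, the membrane protease that activates Mmp2 protein, was at -0.04 ± 0.16, and both changed sign in some settings.

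The tissue inhibitors of metalloproteinases had 0 of 3 genes past the threshold (1 at an unadjusted p under 0.05, Timp3). Timp2 read 1423, 1748, 1978 and 1831 on KO arrays, against 1791, 1583 and 1527 on wild-type arrays (log2 difference 0.09 ± 0.13, adjusted p = 0.809). Timp3, an inhibitor held in the matrix, had the highest log2 difference of the 46 genes (log2 difference 0.47 ± 0.18, adjusted p = 0.23). It read 2241, 1375, 1405 and 1831 on KO arrays, against 1018, 1442 and 1188 on wild-type arrays, with 2 KO arrays above wild type and 2 within its range. All 4 of its probe sets were higher on average, by 0.30 to 0.48, and 0 passed. Timp1 was at -0.09 ± 0.23.

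Of 80 further genes of matrix production, signalling and binding, 73 were tested, of which 1 fell and 0 rose with all arrays (median log2 difference -0.13). Of all probe sets, 0.644% were called lower and 0.951% higher with all arrays. Without the array labelled KO replicate 2, 14 fell and 0 rose, where 4.21% of all probe sets were called lower and 3.14% higher. At an unadjusted p under 0.05 with all arrays, 16 were lower and 2 higher. By that measure 4465 of the 27022 probe sets differed, in either direction. The gene that fell was Serpinh1, the chaperone that binds collagen chains in the endoplasmic reticulum. It read 6613, 8690.3, 7842 and 6544 on KO arrays, against 11045, 10139 and 12513 on wild-type arrays, with no overlap (log2 difference -0.60 ± 0.13, adjusted p = 0.0462, 1.52-fold lower), and the call was lost when any 1 array other than KO replicate 2 was left out (adjusted p up to 0.193). In its list of 15 collagen chain processing genes, P4hb, a subunit of prolyl hydroxylase, was at -0.34 ± 0.09 (adjusted p = 0.1) and 3 fell without that array. Among 14 genes of matrix signals, which include TGF-beta ligands and receptors, 0 passed with all arrays (3 lower at an unadjusted p under 0.05) and 1 fell without that array. The nearest were Ltbp4, a binding protein of latent TGF-beta (log2 difference -0.79 ± 0.18, adjusted p = 0.0604), and Pdgfb (log2 difference -0.57 ± 0.17, adjusted p = 0.124). Among 14 matrix receptors 0 passed with all arrays (2 lower and 1 higher at an unadjusted p under 0.05) and 3 fell without that array. They included the integrin gene Itga6 (log2 difference -0.67 ± 0.16, adjusted p = 0.0705) and the collagen receptor gene Ddr2 (log2 difference -0.53 ± 0.20, adjusted p = 0.217).

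The 21 other matrix proteins had 0 genes past the threshold with all arrays (6 lower at an unadjusted p under 0.05) and 7 lower without the array labelled KO replicate 2. Mfap4, a microfibril-associated protein, read 213, 791, 116 and 255 on KO arrays, against 839.9, 785 and 618 on wild-type arrays. KO replicate 2 alone among the KO arrays lay in the wild-type range, and Mfap4 missed the threshold with it (log2 difference -1.35 ± 0.44, adjusted p = 0.156) and fell 3.56-fold without it (adjusted p = 0.00265). Npnt, nephronectin, was at -0.52 ± 0.16 (adjusted p = 0.125). Of 9 tested other matrix enzymes and inhibitors 0 passed with or without that array, the nearest being Timp4 (0.30 ± 0.12) and Dpp4 (-0.56 ± 0.30).

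Marker lists of other cell types were read on the same arrays. Of 6 fibroblast markers 0 passed with all arrays (3 lower at an unadjusted p under 0.05) and 2 (Dpt and Cd34) fell without the array labelled KO replicate 2. The summed fibroblast signal was 6361 to 10511 on KO arrays, against 9466 to 12726 on wild-type arrays. Dpt is also 1 of the 21 other matrix proteins above, and Pdgfra, a defining marker, was at a log2 difference of -0.06 by its brightest probe set and at 0.45 and 0.54 by the other 2. The smooth muscle and pericyte list had 1 of 5 tested genes lower, Acta2 (adjusted p = 0.0393, and up to 0.154 when 1 array was left out), and 2 of 5 lower without the array labelled KO replicate 2 (Acta2 and Rgs5, adjusted p = 0.00768 and 0.00714). Its summed signal was 8457 to 11228 on KO arrays, against 13098 to 15738 on wild-type arrays, and was led by Rgs5 and Acta2. The other tested markers, Tagln, Myh11 and Cspg4, were at log2 differences of -0.03, -0.31 and -0.15. They overlapped between the groups and passed in neither fit, and Cnn1 was not tested. Of 6 endothelial markers 0 passed (3 lower at an unadjusted p under 0.05), and their sum was 7478 to 8283 on KO arrays, against 8408 to 10602 on wild-type arrays. Tek was at a log2 difference of 0.13 and the other 5 were below 0, with Pecam1 at -0.14. Both Tek and Pecam1 overlapped between the groups. Dividing-cell markers fell in 2 of 5 with all arrays (Rrm2 and Mcm2, adjusted p up to 0.0977 and 0.147 when 1 array was left out). They fell in 3 of 5 without the array labelled KO replicate 2 (also Top2a, adjusted p = 0.0043). Cdk1 was at 0.01 ± 0.21 and Mki67 at -0.91 ± 0.37, and both passed in neither fit. The other tested probe set of Top2a was at 0.05, against -1.24 by the brightest. Of all probe sets, 0.644% were called lower with all arrays and 4.21% without KO replicate 2. The summed dividing-cell signal was 1127 to 2264 on KO arrays, against 2403 to 3459 on wild-type arrays.

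Other lists overlapped between the groups. The brown adipocyte list, led by Ucp1, summed to 102012 to 137423 on KO arrays, against 107151 to 122282 on wild-type arrays. By their brightest probe sets, 0 of 5 markers were past the threshold or at an unadjusted p under 0.05. The 4 tested probe sets of Fabp4 were all above 0 with all arrays, at 0.06 by the brightest and 0.08 to 0.57 by the others. Of these 4, 1 passed with all arrays and 2 without KO replicate 2. Skeletal muscle markers were well represented (22098 to 38806 on KO arrays, against 25558 to 41388 on wild-type arrays, 0 of 7 past the threshold and 1 higher at an unadjusted p under 0.05) and were highest on the 3 arrays of the first block. The macrophage list summed to 7593 to 12727 on KO arrays, against 9197 to 9679 on wild-type arrays, and the neutrophil list to 5198 to 9799 on KO arrays, against 4027 to 6490 on wild-type arrays. The Schwann cell list of 2 genes summed to 842 to 1090.0 on KO arrays, against 1041 to 1226 on wild-type arrays, and the cartilage and bone list to 507 to 692 on KO arrays, against 620 to 656 on wild-type arrays. None of these 4 lists had a marker past the threshold with all arrays (1 macrophage and 3 neutrophil markers were higher at an unadjusted p under 0.05). When KO replicate 2 was left out, the macrophage marker Lyz2 and the neutrophil marker Ngp rose (adjusted p = 0.0181 and 0.0322), and Ngp also rose with the accession block as a covariate (adjusted p = 0.0455). The other macrophage markers did not pass without KO replicate 2 and did not share 1 direction. Adgre1, Cd68 and Mrc1 were at log2 differences of -0.38, -0.46 and -0.42, Csf1r at 0.05 and Cd14 at 0.58. In the second block alone Lyz2 and 4 of 5 neutrophil markers (S100a8, S100a9, Camp and Ngp) rose, where 1.30% of all probe sets were called higher. In the first block, with 1 wild-type array and no test, S100a8 and S100a9 were at log2 differences of -0.30 and -0.32. Camp, Ngp and Lyz2 were at 0.40, 0.31 and 0.22 there. No marker of any list was at a signal of 0. The part of cell composition in the matrix gene values was not tested.

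**Figure D4:**
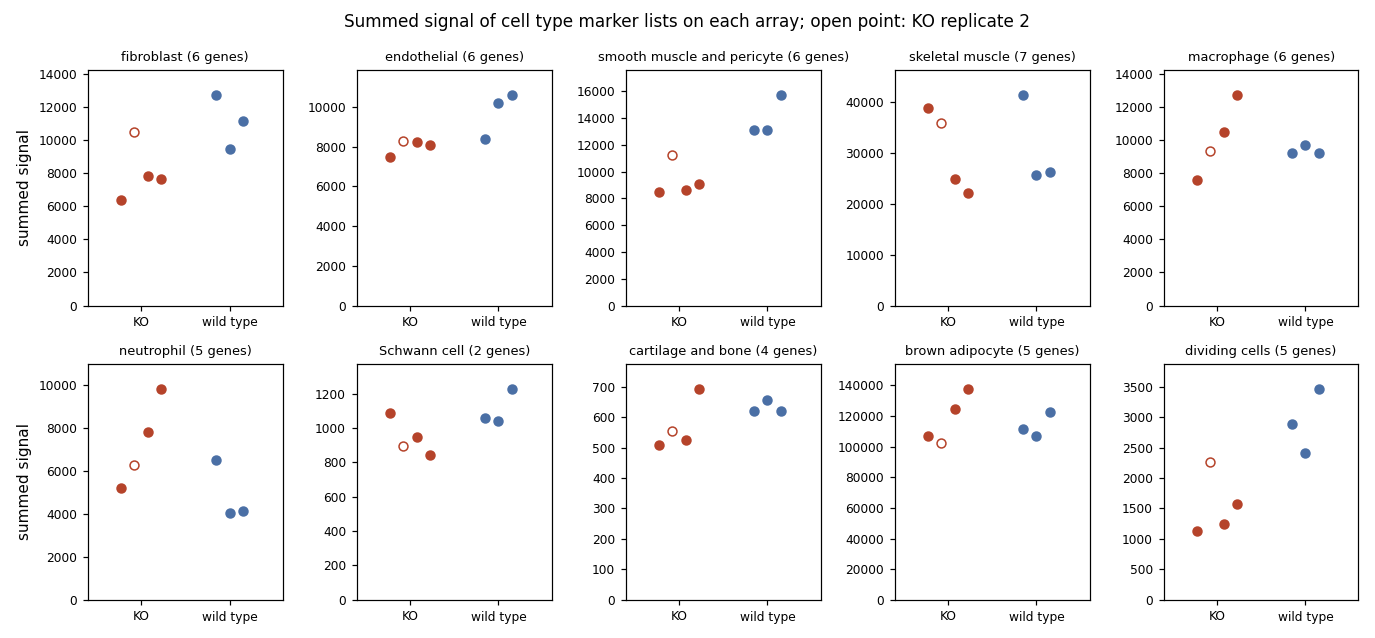
Summed signal (linear array units) of 10 cell type marker lists on each KO array (left) and wild-type array (right), with an open point for KO replicate 2 and the number of genes in brackets. The sums of the smooth muscle and pericyte, endothelial and dividing-cell lists are lower on every KO array than on any wild-type array, while those of the brown adipocyte list overlap. Sums are led by the brightest genes of a list.

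Within the accession blocks, the median log2 difference of the 46 genes was -0.28 in the first (KO replicates 1 and 2 against 1 wild-type array, with no test), where that of all probe sets was 0.03. In the second block it was -0.22, against -0.02 over all probe sets, and 7 matrix genes fell and 0 rose, where 1.39% of all probe sets were called lower and 1.30% higher. With the block as a covariate, 2 fell and 0 rose, where 1.08% of all probe sets were called lower and 1.25% higher. The basement membrane group differed most between the blocks, with a median of 0.09 in the first and -0.26 in the second, and this difference was not tested.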

How the data were processed

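Total RNA of whole brown fat was hybridised to expression arrays, 1 per sample. The deposited intensity values are scaled signals per probe set on a linear scale. GCOS 1.2 is named per the submitters' processing notes, and the sources used here do not say how signals were scaled. Of 45101 probe sets, 64 controls were left out. The probe table gave 1 symbol to 34945, several to 932 and none to 9160. Values were taken as log2(signal + 30.6), where 30.6 is the 20th percentile of all signals, and probe sets with a mean below the 40th percentile were left out, leaving 27022, which included the chosen probe set of all 46 genes. Both groups were fitted with limma 3.58.1 under R 4.3.3, by lmFit and by eBayes with a trend, and p-values were Benjamini-Hochberg adjusted over all 27022. The script was tested on simulated data. Intensities carry no counts, and precision is limited by how many arrays there were.

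The members and lists were chosen with earlier results of these data known. Genes are named with values on each array if they passed in either fit, if they had 1 of the 5 largest log2 differences, or if they had the brightest probe set of their role. In further lists the 2 lowest p-values are named. Genes named outside this rule were chosen after their values were seen. Alternatives varied the offset, the filter, the scaling, the variance model, the choice of probe set, blocks and arrays. The Gyk level is not analysed here.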

Additional observations from a re-analysis of the deposited data

Results flagged for a closer look

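In the 4 KO arrays, 60 measures were screened for an array whose gap to its nearest neighbour took up most of the range of the group (Dixon's ratio past its critical value for 4 samples), which chance does in about 1 in 20 groups. It held for 5. On the array labelled KO replicate 2, Col6a2 read 10157, Col6a3 read 4143 and Col12a1 read 584, each far above the other 3 KO arrays, and the mean of the 3 type VI collagen genes lay at 0.030 on the log2 scale relative to wild type, against -0.65 to -0.57 on KO replicates 1, 3 and 4. On KO replicate 4, Lamc1, the laminin gamma 1 chain, read 1687, below the 3 other KO arrays.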

How the results depend on the processing

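The number of matrix genes past the threshold was 2 with all arrays and moved to 1 with array median scaling, 7 with array weights, 1 with the mean of probe sets per gene (where Vcan was not among those tested), 0 with no filter on dim probe sets, 0 with no variance trend, and 7 in the second accession block alone. Leaving out 1 array each gave 0 to 13, with 13 without KO replicate 2 and 0 without any other. Probe sets called, 431 with all arrays, came to 235, 1312, 191, 100, 6 and 726 in the same order. The 191 are genes, as that setting averages the probe sets of each gene, and with no filter 45037 probe sets were tested. The range was 7 to 1986 probe sets when 1 array was left out (40, 1986, 9 and 15 without KO replicates 1 to 4, and 25, 8 and 7 without wild-type replicates 1, 3 and 4). Further pathway genes called, 1 with all arrays, came to 0, 5, 0, 0, 0 and 3 in that order, to 2 with the accession block as a covariate, 2 with the filter at the 60th percentile, and 0 to 14 leaving out 1 array.

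With the replicate number as a block, which leaves KO replicate 2 without a partner and so without weight, 13 matrix genes, 13 pathway genes and 2183 probe sets were called. Same-numbered arrays deviated together with correlations of 0.06, 0.15 and 0.11, so the numbers were not treated as pairs. Each of these 6 arrays correlated best with its own number, a hint from the data and not the design.

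Among single genes, signs turned only in those that passed nowhere in these settings. In the second block alone Col3a1 was at 0.046, Col5a2 at 0.019, Tnc at 0.063, Mmp14 at 0.086 and Mmp2 at 0.052. With the mean of probe sets Fbln2 was at -0.0082, Mmp14 at 0.0071 and Mmp2 at 0.20. Mmp14 was at 0.011 with the block as a covariate, and Mmp2 at 0.0053 with array weights and 0.030 with the replicate block. Leaving out 1 array moved Col5a2 between -0.18 and 0.046, Fbln2 -0.019 and 0.067, Lamc1 -0.19 and 0.061, Mmp14 -0.11 and 0.11, Mmp2 -0.16 and 0.054, Timp1 -0.29 and 0.14, and Tnc -0.42 and 0.11. The cause was not tested. The median of the matrix genes stayed between -0.31 and -0.14. Nid2 passed in 11 of 13 settings other than leaving out an array (adjusted p up to 0.0996) and Vcan in 9 of 12 (up to 0.0996).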

Other observations

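In 3 of the 5 fibrillar collagen genes a dimmer probe set, outside the choice of the brightest, had a larger log2 difference than the brightest (-0.63, -0.70 and -0.36 in Col3a1, Col5a2 and Col1a2, against -0.11, -0.10 and -0.29). In the other 2 genes the dimmer probe sets had smaller ones, -0.16 against -0.33 in Col1a1, and -0.35 and -0.09 against -0.43 in Col5a1. Col3a1 at its second probe set read 1735, 3832, 2695 and 2399 on KO replicates 1 to 4, against 4553, 3873 and 3592 on wild-type replicates 1, 3 and 4, and fell when the array labelled KO replicate 2 was left out (adjusted p = 0.0154, and 0.170 with all arrays). Col5a2 read 511, 1567, 691 and 691 on KO arrays, against 1411, 1260.1 and 1238 on wild-type arrays (adjusted p = 0.00359 without that array, and 0.259 with all). Col1a2 read 5335, 10301, 7074 and 6978 on KO arrays, against 10339.5, 8897 and 8699.8 on wild-type arrays (adjusted p = 0.0364 without that array, and 0.363 with all). In these 3 genes, KO replicates 1, 3 and 4 were the lowest arrays. The difference between probe sets of a gene was not tested.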
